A study of Mus musculus with 12 samples.

Results

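The thrombospondins are a family of 5 secreted calcium-binding glycoproteins, encoded in the mouse by Thbs1, Thbs2, Thbs3, Thbs4 and Comp, the gene of cartilage oligomeric matrix protein, also known as thrombospondin 5. The members were found by gene symbol and are 5 of the 55092 features in an RNA-Seq table of mouse abdominal aorta. All 5 were among the 14676 genes tested. The 12 libraries were not pooled, and each came from 1 male mouse, with 3 mice in each of 4 groups. CFS and CFA were CCN2fl/fl mice infused with saline or Ang II, and CSS and CSA were CCN2SMC∆ mice infused with saline or Ang II. Every mouse carried floxed Ccn2 alleles and received 5 doses of tamoxifen, started at 8 weeks of age, followed by a washout of 2 weeks and an osmotic pump for 7 days (Ang II at 500 ng/kg/min). In CSS and CSA the deletion was made by Myh11-Cre-ERT2, a tamoxifen-inducible Cre driven by a smooth muscle promoter, and the controls had no Cre, so effects of Cre itself cannot be told apart from those of the deletion. Cells of the wall other than smooth muscle keep the intact gene.

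Thrombospondins fall into a trimeric subgroup (Thbs1 and Thbs2), whose chains carry type 1 repeats that bind CD36 and, in Thbs1, activate latent TGF-β, and a pentameric subgroup (Thbs3, Thbs4 and Comp), which lacks those repeats. All end in the same arrangement of EGF-like, calcium-binding and C-terminal domains, which bind integrins, CD47, collagens and proteoglycans. In the vessel wall they are matricellular proteins, made by smooth muscle cells, fibroblasts, macrophages and endothelium and released by platelets, that regulate cell adhesion, angiogenesis, collagen fibril assembly and the turnover of matrix proteases.

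The coding sequences show which members could exchange reads. Their lengths without the stop codon were 3513 bases for Thbs1, 3516 for Thbs2, 2868 for Thbs3, 2889 for Thbs4 and 2265 for Comp (GENCODE M21, GRCm38). Aligned in pairs, Thbs1 and Thbs2 were identical at 69% of bases, Thbs3 and Thbs4 at 69.1%, Thbs3 and Comp at 71.4%, and Thbs4 and Comp at 71.8%. No pair shared an identical stretch over 26 bases, which is shorter than the 150-base reads. The longest stretch, in capitals with 20 bases on either side, is shown for both pairs that reached it, because it is where fragments of the members are most alike. It lies in 1 exon of each gene, at chr2:118120893-118120918 (plus strand) in Thbs1 and chr17:14676284-14676309 (minus strand) in Thbs2, and at chr13:92755377-92755402 (minus strand) in Thbs4 and chr8:70379696-70379721 (plus strand) in Comp.
Thbs1: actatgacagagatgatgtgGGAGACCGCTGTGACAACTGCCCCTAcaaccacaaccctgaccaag
Thbs2: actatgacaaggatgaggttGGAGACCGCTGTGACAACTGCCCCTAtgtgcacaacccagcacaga
Thbs4: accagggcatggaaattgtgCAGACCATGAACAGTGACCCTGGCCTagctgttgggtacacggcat
Comp: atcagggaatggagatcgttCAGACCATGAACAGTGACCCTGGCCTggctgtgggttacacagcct
The flanks differ within a few bases of the shared run, in both pairs.

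Promoters are shown because 4 members, Thbs2 and Thbs4 among them, rose together in CSA while Thbs3 did not pass the test. The RefSeq table for GRCm38.p6 held the 250 bases before the start of 3 of the 5 members. In all, 6 motifs were searched on both strands, and capitals mark every match: the CCAAT box (CCAAT), the GC box (GGGCGG), the TATA box (TATAAA), the TEAD motif (GGAATG), the AP-1 motif (TGANTCA) and the CArG box of serum response factor. The windows are chr17:14694263-14694512 (minus strand) for Thbs2, chr3:89214930-89215179 (plus strand) for Thbs3 and chr13:92794819-92795068 (minus strand) for Thbs4.
Thbs2: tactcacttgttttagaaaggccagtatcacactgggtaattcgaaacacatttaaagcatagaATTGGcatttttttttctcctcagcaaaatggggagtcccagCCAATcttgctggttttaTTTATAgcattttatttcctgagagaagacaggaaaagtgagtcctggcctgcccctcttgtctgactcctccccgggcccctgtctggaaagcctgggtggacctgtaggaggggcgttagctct
Thbs3: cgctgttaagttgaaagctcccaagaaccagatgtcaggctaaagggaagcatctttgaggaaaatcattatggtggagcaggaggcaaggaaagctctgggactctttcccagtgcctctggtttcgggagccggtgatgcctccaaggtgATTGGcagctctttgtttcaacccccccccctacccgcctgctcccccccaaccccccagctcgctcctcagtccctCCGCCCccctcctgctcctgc
Thbs4: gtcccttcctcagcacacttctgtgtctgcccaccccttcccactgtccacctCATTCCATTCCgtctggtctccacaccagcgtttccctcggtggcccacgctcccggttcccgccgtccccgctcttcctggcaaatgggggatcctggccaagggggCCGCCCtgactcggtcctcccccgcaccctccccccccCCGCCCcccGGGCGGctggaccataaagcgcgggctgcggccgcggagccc
The Thbs2 window had a GC content of 46.8%, against 58.8% for Thbs3, 70.8% for Thbs4 and a median of 52.4% over 32817 promoters. It held CCAAT boxes that begin 186 and 144 bases before the start and a TATA box at 126 bases, counted from the RefSeq start. For Thbs2 that start lies upstream of the GENCODE gene boundary at 14694235, which is the one given below. Thbs3 had a CCAAT box at 98 bases and a GC box at 21 bases. Thbs4 had GC boxes at 89, 51 and 42 bases and TEAD motifs at 197 and 192 bases, which overlap by 1 base. Over all promoters, 33.8% held a CCAAT box, 32.7% a GC box, 12.4% a TATA box and 12.6% a TEAD motif. The AP-1 motif (6.75% of promoters) and the CArG box (1.47%) were not in these 3 windows, and no match is evidence of binding.

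Levels are given in FPKM, the fragments of a gene relative to the length of its exons and the size of the library, which allows levels of different genes to be compared per length. Recovered depth ran from 14555508 to 23102755 fragments per library. Ccn2 (ENSMUSG00000019997, chromosome 10, 24595442 to 24598683), the targeted gene, had 709.5, 1108 and 480.1 FPKM in CFS, 436, 639.9 and 587 in CSS, 1013, 1105 and 564 in CFA, and 255, 331 and 399 in CSA. The saline groups overlapped, and the Ang II groups did not (log2 fold change -1.41 in CSA against CFA, SE 0.34, adjusted p = 0.00622, limma with Benjamini-Hochberg adjustment). Ccn2 shares 23.2% of its exonic bases with a gene on the opposite strand, and Ccn2 mRNA remained in every CSS and CSA library. Smooth muscle markers were present in all libraries, with a summed level over 10 genes of 7911 to 10560 FPKM in the saline groups, 5699 to 8597 in CFA and 823 to 977 in CSA. The library CSA03 stood apart: it had the lowest depth and lay 1.21 and 1.20 from the other CSA libraries (root mean square difference of log2 values over the tested genes), against 0.51 between those and 0.59 to 0.74 within the other groups. Results that rest on it are given also without it.

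Thbs1 was the most abundant member in every library, and CSA held the most of it. Thbs1 (ENSMUSG00000040152) lies on the plus strand of chromosome 2, from 118111876 to 118127133, and Gm29233 on the opposite strand overlaps 3.42% of its exonic bases. Its level was 66.0, 74.8 and 72.9 FPKM in CFS and 68.7, 78.4 and 47.3 FPKM in CSS. It was 170.5, 149.6 and 76.6 FPKM in CFA, and 308, 256 and 298 FPKM in CSA. The saline groups overlapped, CSA lay above all other mice, and the CFA mice were split, with CFA74 close to the saline mice and below CSS55. Among the 14676 tested genes, Thbs1 ranked 540 from the top by mean level in CFS, 600 in CSS, 254 in CFA and 100 in CSA.

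Thbs1 rose in CSA against CFA, from 132 ± 49.3 to 288 ± 27.5 FPKM (SD, n = 3 each), with a log2 fold change of 1.20 (SE 0.28, 95% interval 0.58 to 1.81) and an adjusted p of 0.00538 (limma, Benjamini-Hochberg). Without CSA03 the difference was 1.17. The change is 2.29-fold and under the log2 limit of 1.5 that defines a call here. In CSA against CSS, Thbs1 was called, with a log2 fold change of 2.17 (interval 1.56 to 2.79, adjusted p = 8.62e-05 by limma with Benjamini-Hochberg adjustment). Under saline, the genotypes differed by -0.17 (interval -0.78 to 0.45). CFA against CFS gave 0.81 (SE 0.28, interval 0.20 to 1.43, adjusted p = 0.361 by limma), and the 3 CFA mice lay above the 3 CFS mice. Over 15 alternative fits that difference ran from 0.59 without CFA71 (adjusted p = 0.796 by limma) to 1.17 without CFA74 (adjusted p = 0.0280 by limma), the 1 fit in which it passed. The genotype difference was larger under Ang II than under saline by 1.36 (SE 0.39, interval 0.49 to 2.23, adjusted p = 0.0255 by limma). The interaction had an adjusted p of 0.0526 without CFS69, 0.0540 without CFS70 and 0.0646 without CSS56 (limma).

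Thbs2, the other trimeric member, showed the largest fold change of the family between the Ang II groups. The gene (ENSMUSG00000023885) lies on the minus strand of chromosome 17, from 14665500 to 14694235. Its level was 11.2, 19.9 and 10.6 FPKM in CFS, 12.8, 12.3 and 12.4 FPKM in CSS, 17.2, 12.9 and 16.5 FPKM in CFA, and 91.4, 87.2 and 133 FPKM in CSA. Only the CSA mice were high, and the 9 mice of the other groups overlapped at 10.6 to 19.9 FPKM. Its rank among tested genes was 3355 in CFS, 3753 in CSS, 3012 in CFA and 327 in CSA. From 15.5 ± 2.29 FPKM in CFA to 103.9 ± 25.4 in CSA (SD, n = 3 each), the log2 fold change was 2.72 (SE 0.24, 95% interval 2.19 to 3.25, adjusted p = 1.05e-05, limma with Benjamini-Hochberg adjustment).

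CSA03 had the highest Thbs2 level, and without it the difference was 2.53. In CSA against CSS the log2 fold change was 3.02 (interval 2.48 to 3.55, adjusted p = 3.62e-06 by limma). Neither CSS against CFS (-0.09, interval -0.62 to 0.45) nor CFA against CFS (0.21, interval -0.32 to 0.74) passed the test. The interaction was 2.81 (SE 0.34, interval 2.05 to 3.56, adjusted p = 0.000248 by limma).

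Thbs3, a pentameric member broadly made by mesenchymal cells, passed the test in no comparison. The gene (ENSMUSG00000028047) lies on the plus strand of chromosome 3, from 89215180 to 89226837, and 6.59% of its exonic bases overlap Mtx1 on the opposite strand. It measured 11.8, 13.1 and 11.7 FPKM in CFS, 13.7, 13.6 and 16.6 FPKM in CSS, 14.9, 15.2 and 13.7 FPKM in CFA, and 15.8, 14.3 and 7.82 FPKM in CSA. The library CSA03 was low, and the other CSA mice lay within the range of the CSS and CFA mice. CSA against CFA gave -0.26 (SE 0.22, interval -0.75 to 0.23, adjusted p = 0.369 by limma), and CSA against CSS gave -0.27 (interval -0.76 to 0.22). Without CSA03 these differences were 0.05 and 0.04, so their direction rests on that library. The 3 genes whose pattern was most like that of Thbs3 over the 12 libraries, Acap3, Impdh1 and Prkag1 (Pearson r of 0.976, 0.959 and 0.955), were also low in CSA03, at 2.89, 4.16 and 1.95 FPKM against at least 9.02 FPKM in the other CSA libraries. CSS and CFA each lay above CFS in Thbs3, by 0.26 (intervals -0.23 to 0.75 and -0.23 to 0.74), and neither difference passed the test.

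Thbs4, which in muscle, tendon and heart marks injured or remodelling tissue, was the least abundant member. The gene (ENSMUSG00000021702) lies on the minus strand of chromosome 13, from 92751590 to 92794818. Its level was 1.22, 0.861 and 0.194 FPKM in CFS (74, 53 and 11 fragments) and 0.0327, 0.131 and 0.0559 FPKM in CSS (2, 8 and 4 fragments). In CFA it was 0.209, 0.201 and 0.143 FPKM (15, 14 and 10 fragments), and in CSA it was 1.303, 0.545 and 1.51 FPKM (87, 38 and 76 fragments). A level of 3 fragments corresponds to 0.0419 to 0.0595 FPKM, so CSS lay close to the limit of detection. Fragments were higher in all 3 CSA mice than in any CFA or CSS mouse, while the CFS mice spread from the CFA range to the CSA range.

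Thbs4 passed the filter on low levels, at least 1 FPKM in at least 3 libraries, only through CFS68, CSA01 and CSA03. The test values of this gene are therefore descriptions. Its log2 fold change, on the log2(FPKM + 0.1) scale, was 2.002 in CSA against CFA (SE 0.60, 95% interval 0.67 to 3.33, adjusted p = 0.0210, limma with Benjamini-Hochberg adjustment), and 2.75 in CSA against CSS (interval 1.42 to 4.08, adjusted p = 0.00317 by limma). With no filter on low levels, the adjusted p values were 0.0256 and 0.00372 (limma). Without CFA74, the CSA and CFA difference was 1.89 with an adjusted p of 0.0597 (limma). Under saline the order was opposite: CSS lay below CFS with no overlap, at -2.09 (SE 0.60, interval -3.42 to -0.76, unadjusted p = 0.00534 and adjusted p = 0.475, both by limma). The interaction was therefore the largest of the family on this scale, at 4.10 (SE 0.85, interval 2.22 to 5.98, adjusted p = 0.00499 by limma), and with a pseudocount of 1 it was 1.47. Without CSA03, Thbs4 was not among the tested genes.

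Skeletal muscle and Schwann cell markers, from tissues that can adhere to a dissected aorta, were read beside Thbs4. Summed over 8 genes, skeletal muscle markers reached 162 FPKM in CFS68 and 263 FPKM in CSS55, against 2.71 to 5.97 FPKM in the other 10 libraries. Of the list, Ckm and Myh4 were at 0 in all CSA libraries, and Tnnt3 was 2.37 to 2.52 FPKM in CSA and 0.924 to 1.07 FPKM in CFA. Of these 2 libraries, CFS68 had the highest Thbs4 level in its group, at 1.22 FPKM, and CSS55 also had the highest in its own, at 0.131 FPKM. Schwann cell markers summed to 83.5 to 117 FPKM in CFS, 77.1 to 93.1 in CSS, 89.9 to 99.8 in CFA and 58.6 to 82.1 in CSA. The part of these cells in the Thbs4 values was not tested.

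Comp, an organiser of collagen fibrils in cartilage and tendon and a product of contractile vascular smooth muscle, had 3 levels. The gene (ENSMUSG00000031849) lies on the plus strand of chromosome 8, from 70373558 to 70382066. Its level was 6.07, 7.55 and 5.76 FPKM in CFS, 12.8, 15.3 and 15.6 FPKM in CSS, 15.4, 14.6 and 12.7 FPKM in CFA, and 45.2, 31.0 and 24.4 FPKM in CSA. CFS mice were lowest, CSS and CFA mice overlapped in the middle, and CSA mice were highest with no overlap.

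Comp rose in CSA against CFA, from 14.2 ± 1.36 to 33.5 ± 10.7 FPKM (SD, n = 3 each; log2 fold change 1.19, SE 0.21, 95% interval 0.73 to 1.65, adjusted p = 0.000904, limma with Benjamini-Hochberg adjustment). It also rose in CSA against CSS, by 1.16 (interval 0.70 to 1.62, adjusted p = 0.000892 by limma). Without CSA03 these were 1.40 and 1.36. Both rises were below the fold limit. The differences from CFS were 1.16 in CSS against CFS (interval 0.70 to 1.62, unadjusted p = 0.000174, adjusted p = 0.142 by limma) and 1.13 in CFA against CFS (interval 0.67 to 1.59, unadjusted p = 0.000218, adjusted p = 0.0969 by limma), and did not pass after adjustment. With array weights their adjusted p values were 0.00916 and 0.00673 (limma). The interaction was 0.03 (SE 0.29, interval -0.62 to 0.67), so the interval includes a genotype difference up to 0.67 larger or 0.62 smaller under Ang II than under saline.

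**Figure D1:**
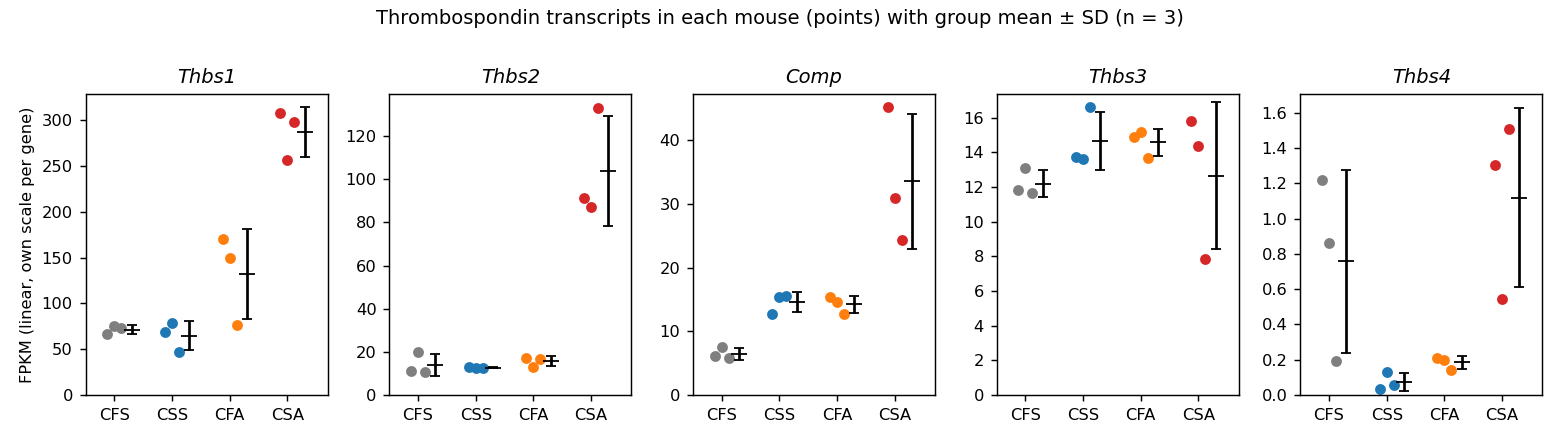
FPKM of the 5 thrombospondin genes in each of the 12 mice, by group (points, 1 mouse each; bars, group mean ± SD, n = 3). Thbs2 is high in the 3 CSA mice alone (87.2 to 133 FPKM against at most 19.9), Comp has an intermediate level in CSS and CFA, and the low Thbs3 point in CSA is CSA03 (7.82 FPKM).

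Chondrocyte and tendon markers were read beside Comp. Their sum over 12 genes was 40.0 to 90.9 FPKM in CFS, 90.4 to 114 in CSS, 70.1 to 108 in CFA and 95.5 to 131 in CSA. Most of it was Fmod, a collagen-binding proteoglycan, and without Fmod the sums were 9.19 to 12.3 FPKM in CFS, 20.4 to 22.3 in CSS, 14.03 to 31.2 in CFA and 20.3 to 23.1 in CSA. Of the 12 genes 8 were tested, and 0 passed in CSS against CFS or in CFA against CFS (limma, adjusted p), while 4 in each had an unadjusted p under 0.05, beside 6.3% and 9.42% of all tested genes. Scx, a transcription factor of tendon, was 3.61 to 6.38 FPKM in CFS, 12.7 to 14.4 in CSS, 7.00 to 20.8 in CFA and 3.74 to 9.75 in CSA. Hapln1, a link protein of cartilage matrix, was named after its values were seen. It was 1.77 to 2.56 FPKM in the other 9 libraries and 0.104 to 0.232 FPKM in CSA. Hapln1 fell by 3.17 in CSA against CFA (adjusted p = 3.19e-06 by limma). Of the 7 tested genes other than Matn3, 0 rose and 1 fell in that comparison, with a median of 0.557. Over all tested genes, 19.5% were higher and 21.2% lower. Tnmd and Col2a1, also named after their values were seen, were higher in CSA than in CFA. Tnmd, which did not pass, was 2.036 ± 0.518 FPKM in CFA and 4.4 ± 1.77 in CSA. Col2a1, which was not tested, was 0.0283 ± 0.033 and 1.198 ± 0.499 FPKM (mean ± SD over 3 mice). The defining cartilage gene Acan was 0.537 to 0.629 FPKM in CFS, 1.62 to 2.33 in CSS, 0.872 to 4.98 in CFA and 3.83 to 4.46 in CSA. Sox9, a transcription factor of cartilage, was 0.351 to 0.672 FPKM in CFS, 1.03 to 1.48 in CSS, 0.809 to 0.910 in CFA and 1.17 to 1.75 in CSA. For Acan and Sox9, both picked from the list, the CSS and the CFA values did not overlap those in CFS. So it was for 20.4% of all tested genes in CSS, in either direction, and for 9.44% in CFA on the higher side. Log2 fold changes of Acan and Sox9 were 1.62 and 1.27 in CSS and 1.53 and 0.75 in CFA, of which 0 passed (adjusted p from 0.278 to 0.475, limma). Tnmd and Mkx went the other way in CSS, with overlap, at means of 0.526 and 1.06 FPKM against 0.671 and 1.42 in CFS. Whether a change in such cells has a part in the Comp values was not tested.

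Between CSA and CFA, 4 of the 5 members passed the test and were higher, with 0 lower, beside 19.5% of all tested genes that were higher and 21.2% lower. Called by the fold limit too were 2 members, Thbs2 and Thbs4, beside 8.95% of tested genes called higher. Thbs4 is in these counts, in those of CSA against CSS and in those of the interaction. It met the filter on low levels only with CSA libraries, so its part in them is a description. The groups did not overlap for 4 members, all higher, beside 23.4% of tested genes. Without CSA03, 4 members were tested and 3 of them (Thbs1, Thbs2 and Comp) were higher, beside 21.3% of the 14066 genes tested then. The family's median log2 fold change was 1.20, beside -0.04 over all tested genes. In CSA against CSS, 4 members were again higher (22.3% of tested genes) and 3 were called, with Thbs1 added (10.9%), and 4 did not overlap (26.3%). In CSS against CFS and in CFA against CFS, 0 members passed, beside 0.0204% and 0.0341% of tested genes, by limma. Groups without overlap were found for 3 members in CSS against CFS (Thbs3 and Comp higher, Thbs4 lower), beside 20.4% of tested genes, and for 3 in CFA against CFS (Thbs1, Thbs3 and Comp, all higher), beside 9.44%. At an unadjusted p under 0.05, 2 members (Thbs4 and Comp) differed in CSS against CFS and 3 (Thbs1, Thbs4 and Comp) in CFA against CFS, beside 6.3% and 9.42% of tested genes. For the interaction, 3 members (Thbs1, Thbs2 and Thbs4) passed with a positive value, beside 12.8% of tested genes, and 2 (Thbs2 and Thbs4) were also past the fold limit, beside 7.89%. CSA against CFA and CSA against CSS use the same CSA mice, and the saline comparison and CFA against CFS use the same CFS mice. For every member whose groups did not overlap, the two-sided exact permutation test gave p = 0.1, the smallest that 3 against 3 allow.

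**Figure D2:**
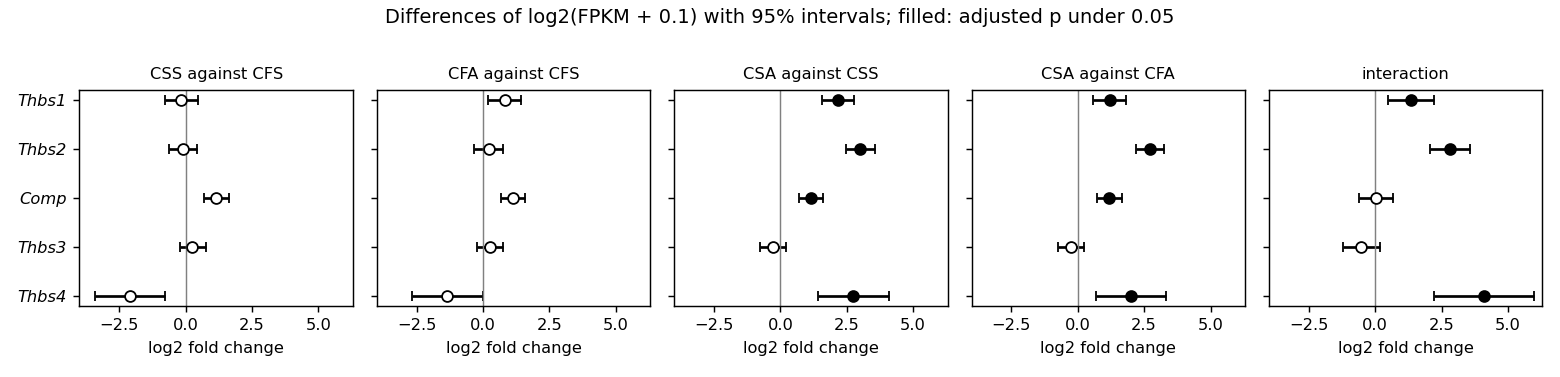
Log2 fold changes of the 5 genes on the log2(FPKM + 0.1) scale in 4 comparisons and the interaction (points, estimates; bars, 95% intervals; filled, adjusted p under 0.05 by limma). Thbs2 stands at 2.72 in CSA against CFA and near 0 in CSS against CFS, Thbs4 changes sign between those comparisons, and Comp is between 1.13 and 1.19 in all 4 comparisons with an interaction of 0.03. The Thbs4 points are descriptions, since this gene did not meet the filter without the CSA libraries.

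Summed over the family, the level was 104.5 ± 10.3 FPKM in CFS, 107 ± 14.0 in CSS, 177 ± 51.1 in CFA and 439 ± 42.7 in CSA (mean ± SD over 3 mice). Thbs1 made up most of it in each group, with 68.3% in CFS, 60.2% in CSS, 73.3% in CFA and 65.6% in CSA. The share of Thbs2 was 9.46% in CFA and 23.6% in CSA, and that of Thbs3 was 8.71% and 2.93%. Comp held 6.17% of the family in CFS and 13.8% in CSS, where the family sums overlapped. These shares are descriptions, since the members' own tests are given above.

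**Figure D3:**
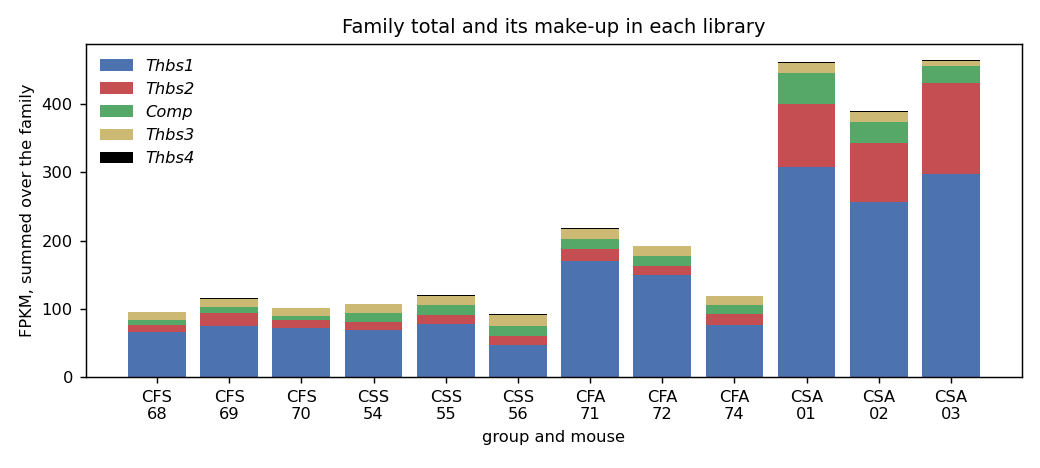
Summed FPKM of the 5 thrombospondin genes in each mouse, stacked by gene. The CSA mice have the tallest bars (mean 439 FPKM), Thbs1 is the largest segment in every bar, and the Thbs2 segment is tallest in CSA.

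The CSA libraries also differed in cell type markers, and in bulk tissue fewer cells of a type and less RNA per cell cannot be told apart. All 10 smooth muscle markers fell in CSA against CFA (median log2 fold change -2.99). All 10 macrophage and monocyte markers rose (median 2.896, and 9 of 10 without CSA03), and their sum was 2418 to 2628 FPKM in CSA against 334 to 708 in CFA. Ly6c2, among these 10, met the filter on low levels only with the CSA libraries, so its rise is a description. Neutrophil markers summed to 528 to 579 FPKM in CSA against 11.1 to 27.9 in CFA, and T cell markers to 29.5 to 40.1 against 0.922 to 3.05 FPKM. Of the 8 neutrophil and 7 T cell markers, 3 and 6 reached the filter on low levels only through the CSA libraries, and are given by these sums. Endothelial markers summed to 181 to 225 FPKM in CSA against 284 to 532 in CFA, and of 10 tested 1 rose and 3 fell (1 and 4 without CSA03), beside 19.5% of all tested genes higher and 21.2% lower. Of 10 fibroblast markers, 2 rose and 5 fell, beside the same shares, with sums of 1317 to 1517 FPKM in CSA and 1911 to 2225 in CFA. Without Gsn the sums overlapped, at 1218 to 1443 FPKM in CSA and 1286 to 1372 in CFA. Of the 6 platelet and megakaryocyte markers tested, 0 rose and 1 fell, and their sum over 12 genes was 24.6 to 56.7 FPKM in CSA and 37.9 to 56.01 in CFA, with Gp1bb at 0 in every library. The part of the other cell types in the higher Thbs1, Thbs2, Thbs4 and Comp levels was not tested.

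In CSS and CFA, mean Comp lay above CFS without passing after adjustment, and the marker lists are given beside it. Macrophage sums were 252 to 309 FPKM in CFS and 273 to 336 in CSS, and neutrophil sums were 3.75 to 15.6 and 4.33 to 5.66 FPKM. In CSS against CFS, 0 of 10 smooth muscle, 0 of 10 macrophage and 0 of 5 neutrophil markers passed the limma test, and 0 of each had an unadjusted p under 0.05. Camp, Ngp and Mmp8, which reached the filter only through CSA, are left out of the neutrophil counts. Of the other lists, the chondrocyte and T cell lists aside, 2 of 10 endothelial, 1 of 10 fibroblast and 1 of 6 adipocyte markers had an unadjusted p under 0.05, beside 6.3% of all tested genes. T cell markers summed to 0.448 to 1.87 FPKM in CFS and 1.72 to 4.09 in CSS. In CFA against CFS, 0 of each passed by limma, with median log2 fold changes of -0.27, 0.55 and 1.46. An unadjusted p under 0.05 was found for 3 of 10 smooth muscle, 4 of 10 macrophage and at most 4 of 5 neutrophil markers. So it was for 5 of 10 fibroblast and 1 of 10 endothelial markers, beside 9.42% of all tested genes. In CFA the macrophage sum was highest in CFA72 (708 FPKM), whereas Thbs1 was highest in CFA71. CFA74, the CFA mouse with the lowest Thbs1, had the lowest sums of smooth muscle (5699 FPKM), macrophage (334 FPKM) and neutrophil markers (11.1 FPKM) in its group, and the highest of endothelial (532 FPKM), fibroblast (2225 FPKM) and adipocyte markers (258 FPKM). Without Gsn, its fibroblast sum was the lowest of the group, at 1286 FPKM against 1372 in CFA71 and 1344 in CFA72.

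**Figure D4:**
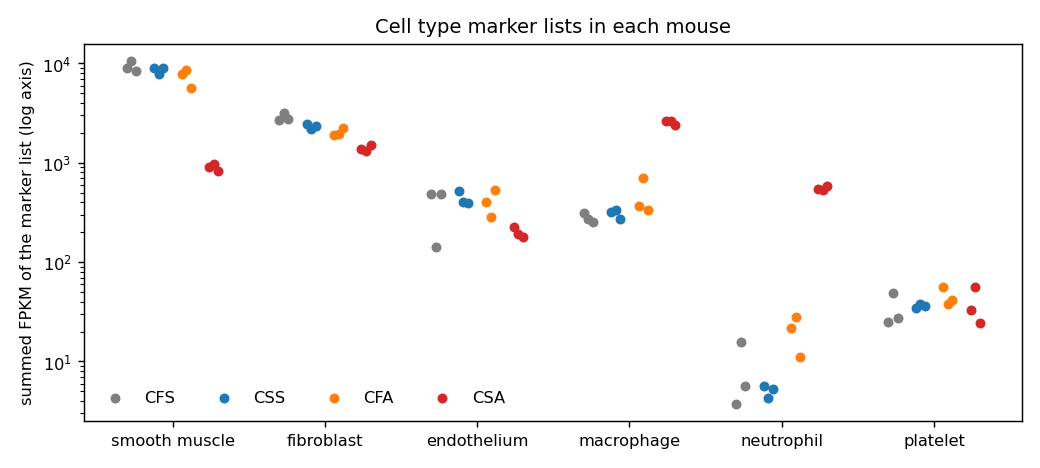
Summed FPKM of cell type marker lists in each mouse, on a log axis, by group. CSA mice are below all others for smooth muscle markers (at most 977 FPKM against at least 5699) and above all others for macrophage and neutrophil markers, and platelet sums overlap among groups. Points are single mice.

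Genes with the most similar pattern over the 12 libraries were sought among 7778 tested genes with a mean of at least 5 FPKM. These correlations are descriptions, because the libraries share groups and CSA stands apart from the rest. For Thbs1 they were Lmnb1 (lamin B1, r = 0.971), Thy1 (r = 0.970) and Retnlg, a neutrophil product (r = 0.967). For Thbs2 they were Mxd1, a partner of Max (r = 0.988), Fyb, an adaptor of T cells and platelets (r = 0.982), and Isg20, an interferon-induced nuclease (r = 0.982). Fyb, for example, was 2.70 ± 0.440 FPKM in CFS, 2.69 ± 0.455 in CSS, 3.39 ± 0.540 in CFA and 29.8 ± 5.65 in CSA (mean ± SD over 3 mice). For Thbs4, a low gene, the values were lower, with Cmc1 at 0.904, Serping1 (C1 inhibitor) at 0.889 and Gm8292 at 0.863. For Comp they were Ltbp2, a latent TGF-β binding protein of elastic microfibrils (r = 0.959), Mir142hg (r = 0.944) and Clic1 (r = 0.942). Ltbp2, picked for this correlation, was 5.47 ± 0.373 FPKM in CFS, 15.5 ± 0.206 in CSS, 23.1 ± 10.3 in CFA and 77.9 ± 19.4 in CSA (mean ± SD over 3 mice).

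The counts of the partner lists that follow stand beside 19.5% of all tested genes higher and 21.2% lower in CSA against CFA, with 21.3% and 25.7% without CSA03. Of 22 receptor genes, all tested, 7 rose and 6 fell, with a median of -0.01 (9 and 6 without CSA03). Itgam and Itga2, among those that rose, met the filter on low levels only with the CSA libraries. Cd47, the receptor for the C-terminal domain, was 16.1, 15.5 and 17.6 FPKM in CFA and 31.8, 29.1 and 42.4 FPKM in CSA, and rose by 1.05 (SE 0.14, adjusted p = 0.000173, limma with Benjamini-Hochberg adjustment). Cd36, which binds the type 1 repeats, was 27.8, 55.8 and 70.1 FPKM in CFA and 17.96, 27.3 and 30.0 FPKM in CSA. Its groups overlapped, and the difference was -0.96 (SE 0.51, adjusted p = 0.160 by limma). Adipocyte markers, read beside Cd36, which fat cells also express, summed to 55.1 to 95.9 FPKM in CSA and 89.7 to 258 in CFA, with 2 of 6 lower. Both Cd36 (126 FPKM) and the adipocyte sum (647 FPKM) were highest in CFS70, and the part of fat in the Cd36 values was not tested.

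The 3 receptor genes with the largest change were integrin subunits. Itgam and Itgb2 together form Mac-1 on myeloid cells. Itgb2 rose by 3.19 (SE 0.31, adjusted p = 1.90e-05 by limma), from 8.18 ± 4.25 to 70.01 ± 3.99 FPKM (SD, n = 3 each). Itgam was 1.61 ± 1.09 FPKM in CFA and 18.9 ± 4.64 in CSA. Outside CSA it reached 1 FPKM only in CFA71 and CFA72, so its values are descriptions. Itga2, the α2 chain of a collagen receptor, was 0.782 ± 0.203 FPKM in CFA and 4.77 ± 1.61 in CSA. Outside CSA, Itga2 reached 1 FPKM only in CFA72, so these values are descriptions too. Next in size, and named here after their values were seen, were Sirpa, a receptor of CD47 on myeloid cells, and Itga6, which rose by 2.22 (adjusted p = 3.39e-06 by limma) and 2.19 (adjusted p = 0.000149 by limma), from 16.3 ± 2.08 to 76.97 ± 15.7 FPKM and from 3.03 ± 0.630 to 14.2 ± 3.39 FPKM (mean ± SD over 3 mice). On the lower side, Itga3 and Itgb3, also named after their values were seen, fell by 1.98 and 1.90, from 35.8 ± 2.91 to 9.25 ± 2.50 FPKM and from 36.5 ± 13.0 to 9.45 ± 2.57 FPKM (SD, n = 3 each).

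Of ligands and matrix partners, 6 of 23 genes rose and 6 fell in CSA against CFA, with a median of 0.06 (8 and 7 of 23 without CSA03), beside the same shares of all genes. Matn3, also tested, was left out of these counts. Mmp9, a gelatinase whose activity and clearance thrombospondins regulate, was 2.33, 5.09 and 2.80 FPKM in CFA and 19.2, 20.8 and 16.9 FPKM in CSA, a rise of 2.52 (SE 0.26, adjusted p = 2.42e-05 by limma). Matn3, a matrilin of cartilage that is also in the chondrocyte list, was 0.221 ± 0.152 FPKM in CFA and 1.28 ± 0.269 in CSA (mean ± SD over 3 mice). It reached the filter only through the CSA libraries and was not among the tested genes without CSA03. Vwf, made by endothelium and platelets and also in the endothelial list, whose sum was lower in CSA, fell by 2.36 (SE 0.54, adjusted p = 0.00510 by limma), from 64.5 ± 27.2 to 12.2 ± 4.02 FPKM (SD, n = 3 each). Tgfb1, whose latent product thrombospondin 1 activates, was 13.0, 20 and 14.9 FPKM in CFA and 35.2, 28.1 and 19.4 FPKM in CSA. It rose by 0.77 (SE 0.22, adjusted p = 0.0151 by limma), although CSA03 lay below CFA72.

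Of 9 tested proteases that cleave thrombospondins, Gzmb and Elane reached the filter on low levels only through the CSA libraries, and their values are descriptions. Of the other 7, 1 rose and 2 fell in CSA against CFA, with a median of 0.64 (3 and 2 of 7 without CSA03), beside 19.5% and 21.2% of all tested genes. Gzmb, the granzyme of cytotoxic lymphocytes, was 0.224, 0.361 and 0.0329 FPKM in CFA and 6.24, 3.45 and 1.91 FPKM in CSA. Elane, neutrophil elastase, had at most 0.144 FPKM in CFA and 1.15 to 2.12 FPKM in CSA. Htra1, a serine protease made by smooth muscle and fibroblasts, fell by 1.91 (SE 0.19, adjusted p = 1.96e-05 by limma), from 308, 232 and 179 FPKM in CFA to 63.4, 52.5 and 71.9 FPKM in CSA.

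Of 30 tested other proteins with thrombospondin type 1 repeats, 5 rose and 14 fell in CSA against CFA, with a median of -0.57 (7 and 14 without CSA03), beside 19.5% and 21.2% of all tested genes. Thsd4, which promotes fibrillin-1 microfibril assembly, fell by 4.33 (SE 0.15, adjusted p = 8.05e-08, limma with Benjamini-Hochberg adjustment), from 32.7, 34.6 and 32.0 FPKM in CFA to 1.92, 1.46 and 1.31 FPKM in CSA. Its saline levels, 38.6 to 55.4 FPKM, were above those in CFA. Sema5a, a membrane semaphorin, fell by 2.82 (SE 0.26, adjusted p = 1.40e-05 by limma), from 8.85 ± 4.12 to 1.10 ± 0.189 FPKM, and Adamtsl5, another binder of fibrillin, fell by 2.22 (SE 0.26, adjusted p = 6.59e-05 by limma), from 32.9 ± 1.71 to 7.43 ± 3.04 FPKM (SD, n = 3 each). Ccn2 itself belongs to this list, since CCN proteins carry 1 such repeat.

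Thrombospondins, Thbs4 above all, also bind ATF6 in the endoplasmic reticulum and support its stress response. Of the 10 genes in the list of ATF6 and its targets, 4 rose and 0 fell in CSA against CFA, with a median of 0.43 (5 and 0 without CSA03), beside 19.5% and 21.2% of all tested genes. Sdf2l1, a component of an endoplasmic reticulum chaperone complex, was 7.33, 10.1 and 5.49 FPKM in CFA and 19.5, 26.5 and 9.30 FPKM in CSA (log2 fold change 1.18, SE 0.35, adjusted p = 0.0209 by limma), with CSA03 inside the CFA range. Manf, a secreted stress protein, rose by 1.01 (SE 0.22, adjusted p = 0.00326 by limma), and Pdia4, a disulfide isomerase, by 0.60 (SE 0.17, adjusted p = 0.0155 by limma). Atf6 itself was 8.16 to 8.55 FPKM in CFA and 9.24 to 13.8 FPKM in CSA (log2 fold change 0.36, SE 0.14, adjusted p = 0.0654 by limma), and the difference was 0.19 without CSA03 (adjusted p = 0.0919 by limma).

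Outside CSA, these partner lists gave 0 genes past the limma test in CSS against CFS and 0 in CFA against CFS. At an unadjusted p under 0.05 there were 1 of 22 receptors, at most 8 of 23 ligands and matrix partners, at most 3 of 7 proteases, 7 of 30 type 1 repeat proteins and 0 of 10 ATF6 genes in CSS against CFS, beside 6.3% of all tested genes. In CFA against CFS there were 4, at most 8, at most 5, 14 and 0 of the same numbers, beside 9.42% of all tested genes. The limits are given because the counts were made with Matn3, Gzmb and Elane, which are left out of the 23 and the 7. In CSA against CSS, which uses the same CSA mice as CSA against CFA, 8 receptors rose and 8 fell, 6 of 23 ligands and matrix partners rose and 9 fell, and 4 of 7 proteases rose and 2 fell (Matn3, Gzmb and Elane left out), where 22.3% of all tested genes rose and 23.9% fell. For type 1 repeat proteins the counts were 9 and 10, and for ATF6 genes 4 and 0.

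**Figure D5:**
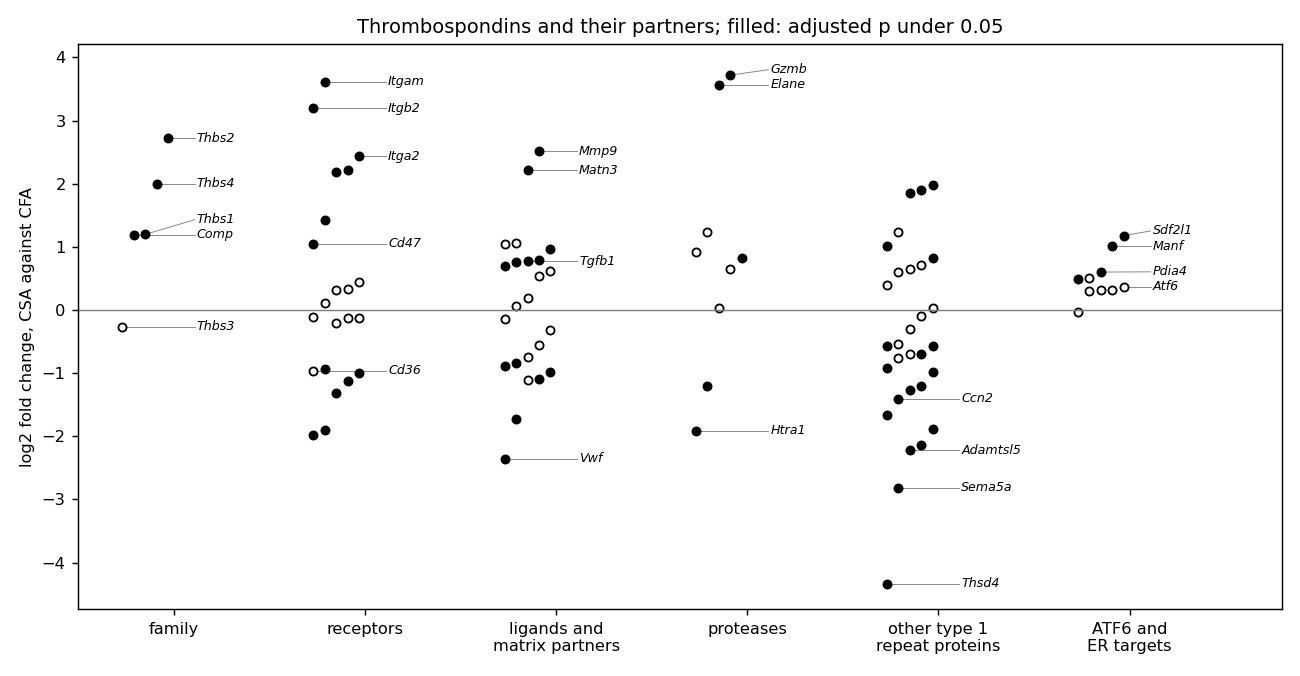
Log2 fold change in CSA against CFA of the thrombospondin genes and their partner lists, on the log2(FPKM + 0.1) scale (1 point per tested gene; filled, adjusted p under 0.05 by limma). The points of Thbs4, Matn3, Gzmb, Elane, Itgam and Itga2 are descriptions, since these genes did not meet the filter without the CSA libraries. Of the 5 thrombospondins 4 are filled and above 0, receptors and ligands spread to both sides, and Thsd4 is lowest at -4.33.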

How the data were processed

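Poly(A) RNA of 12 abdominal aortas was sequenced in pairs of 150 bases. Values are FPKM as deposited, 1 per gene and mouse. The submitters' processing notes name HISAT2 2.0.5, StringTie 1.3.3b, featureCounts 1.5.0-p3 and mm10, and whether strand was used in counting is not given in the sources used here. Multiplied by GENCODE M21 exon lengths, 98.0% to 98.5% of values under 100 fragments per library came out whole within 0.05, and their sum was taken as depth. Median-of-ratios factors of the deposited values were identical in all libraries, so the FPKM already carry a scaling between them. Counting limits (3 fragments) cover counting error only.

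Log2(FPKM + 0.1) was fitted in R 4.3.3 with limma 3.58.1 (lmFit, eBayes with trend and robust), 1 coefficient per group, for genes with at least 1 FPKM in at least 3 libraries. P-values were adjusted by Benjamini-Hochberg over all 14676. Passing means an adjusted p under 0.05, and called adds an absolute log2 fold change over 1.5. Genes said to reach the filter only through CSA had 1 FPKM in no other library. Thbs4, Itgam, Itga2, Ly6c2, Retnlg, Cxcr2 and Trac, among others, reached 1 FPKM elsewhere in too few libraries to meet the filter without CSA. The pseudocount understates changes of low genes. The script was tested on simulated data. Sequences came from RefSeq (GRCm38.p6) and GENCODE M21 transcripts, aligned with Biopython 1.88, and tables were handled with pandas 2.3.3 and numpy 2.4.6 under Python 3.11.15, and plots drawn with matplotlib 3.10.9.

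The genes named were the 5 members, the targeted gene, the 3 genes of each partner list with the largest change in CSA against CFA, Cd36, Cd47, Tgfb1 and Atf6, and the 3 genes most correlated with each member. Marker genes are named beside the results they touch. The family and the lists were chosen as subjects with earlier results of these data known. Alternatives were a pseudocount of 1, no filter, a mean FPKM of at least 5, 2 other scalings, eBayes without trend or robust, array weights, no fold limit, only the compared groups, and leaving out each mouse. The counts of the lists without CSA03 were added after seeing the data.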

Additional observations from a re-analysis of the deposited data

Results flagged for a closer look

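The genotype difference (CCN2SMC∆ minus CCN2fl/fl) under Ang II differed from that under saline for 16 of 22 named partners, members and targeted gene, beside 26.4% of all tested genes, as tested by the limma interaction on the log2(FPKM + 0.1) scale with Benjamini-Hochberg adjustment over all of them. Most of the 22 were chosen for a large change in CSA against CFA, a part of this contrast. A high count was thereby built in, and the 26.4% is not a like share to set it against. The other 3 named genes reached 1 FPKM in the CSA libraries alone and were left out. Itgam and Itga2, in both counts, also met the filter only with the CSA libraries, so their values are descriptions. Thbs4 needed CSA libraries too, as given above. In the family, the genes that differed were Thbs1 (1.36, adjusted p = 0.0255), Thbs2 (2.81, adjusted p = 0.000248) and Thbs4 (4.10, adjusted p = 0.00499).

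Among receptors they were Itgb2 (3.06, adjusted p = 0.000626) and Cd47 (1.09, adjusted p = 0.00259), and, as descriptions, Itgam (3.75) and Itga2 (2.86). Among ligands and proteases they were Mmp9 (3.03, adjusted p = 0.000230), Vwf (-2.85, adjusted p = 0.0186) and Htra1 (-2.03, adjusted p = 0.000378). Among type 1 repeat proteins they were Thsd4 (-4.56, adjusted p = 3.85e-06), Sema5a (-2.46, adjusted p = 0.000847) and Adamtsl5 (-2.53, adjusted p = 0.000685). Among ATF6 targets they were Sdf2l1 (1.60, adjusted p = 0.0358), Manf (1.02, adjusted p = 0.0307) and Pdia4 (0.77, adjusted p = 0.0355). Most were chosen for a large change in CSA against CFA, which is a part of this contrast.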

How the results depend on the processing

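Of the 25 member results, the alternatives gave 364 values that kept their direction and their side of the call (adjusted p and fold limit together), 8 reversed, 6 newly called and 4 no longer called. The 364 include alternatives whose directions were fixed beforehand. Median-of-ratios scaling used the same factor in all libraries, and removing the fold limit changes no estimate. With a pseudocount of 1, Thbs4 was under the fold limit, at 0.81 in CSA against CFA, 0.95 in CSA against CSS and 1.47 in the interaction. Without a fold limit, Thbs1 (1.20) and Comp (1.19) in CSA against CFA, Comp in CSA against CSS (1.16) and the Thbs1 interaction (1.36) also passed. Leaving out each mouse in turn gave ranges of -0.25 to 0.20 for Thbs2 and -0.32 to 0.044 for Thbs1 in CSS against CFS, reversed without CFS69 and CSS56. For Thbs3 the ranges were -0.46 to 0.047 in CSA against CFA and -0.46 to 0.045 in CSA against CSS, reversed without CSA03. For Thbs4 in CSA against CFA the range was 1.89 to 2.41, lowest without CFA74. The Comp interaction ran from -0.21 (without CSA01) to 0.23 (without CSA03), and was also below 0 without CFS69 (-0.09), CSS54 (-0.06) and CFA74 (-0.05). The Thbs1 interaction ran from 1.01 (without CFA74) to 1.59 (without CFA71), and passed the fold limit there and without CSS55 (1.51). Its adjusted p, 0.0255 with all mice, was 0.0526 without CFS69, 0.0540 without CFS70 and 0.0646 without CSS56, by limma. Comp in CSS against CFS also passed the adjusted p in a fit of only the compared groups (0.0255), and in CFA against CFS without CFA74 (0.0475), by limma.

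Over all tested genes, a mean FPKM of at least 5 lowered the calls in CSA against CFA from 1314 higher and 1214 lower to 452 and 643, and a pseudocount of 1 left 683 lower. Without CFA74 the calls in CFA against CFS went from 3 higher and 1 lower to 112 and 12, and with array weights to 133 and 14, while CSS against CFS went from 1 and 1 to 22 and 13. The cause was not tested. Thbs4 had no value at a mean FPKM of at least 5, in the fits of only the compared groups, or without CFS68, CSA01 or CSA03. In those fits it was not among the tested genes. No paired analysis was possible because the groups share no replicate numbers. With 3 mice per group and 2 to 87 fragments, Thbs4 has the least precise values of the family.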
